A study of Mus musculus with 6 samples.

Results

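Kinesins are ATP-driven motor proteins that step along microtubules. The mitotic members build the spindle, move and hold chromosomes and complete cytokinesis, and their genes are mostly transcribed late in the cell cycle of dividing cells. The transport members carry vesicles, organelles, protein complexes and ciliary cargo in dividing and resting cells alike. The kinesin family of MC3T3-E1 cells, a mouse pre-osteoblast line, was described here as the protein-coding genes whose symbol begins with Kif or Kifc followed by a digit. Of the 54532 genes in the deposited table, 22046 were protein-coding and 43 of these matched, namely 14 mitotic kinesins, 15 transport kinesins, 13 kinesins with ciliary, signalling, microtubule-end or mixed roles (here other kinesins), and Kif1bp, which binds kinesins and is not a motor. Cenpe and Stard9 are kinesin motors that this naming misses, and they are given beside the family.

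RNA sequencing compared MC3T3-E1 cells induced for 3 days in osteogenic medium (control, 3 samples) with cells induced for 3 days in osteogenic medium with 0.2 mM metformin, a biguanide that lowers blood glucose (metformin, 3 samples). The 6 samples come from 1 cell line, and the time comes from the study's methods and the dose from its results text, since the sample labels name the medium and the treatment only. The deposited values are FPKM, the reads of a gene divided by its length and by the library size, and the recovered reads were 18399861 to 20652437 per control sample and 19256672 to 22111790 per metformin sample. Control replicate 1 stood apart from the other controls, with Pearson correlations of log2 values across genes of 0.960 and 0.952 against 0.988 between control replicates 2 and 3, and across genes the deviation of each control from the mean of the other controls followed GC content, with Spearman's rho of -0.668, 0.411 and 0.635 for replicates 1, 2 and 3, values that are not independent of each other. All 10 osteoblast markers listed passed the filter on low values, among them Runx2, the master transcription factor of the lineage, at a mean of 30.5 FPKM in control. Of the markers of other cells, Snap25 and Nefl of neurons and Myod1 and Myog of muscle were at 0 in every sample and none of the 4 endothelial markers passed the filter, while Tubb3 (neurons), Cd68 and Lyz2 (macrophages), Fabp4 (adipocytes) and Des (muscle) passed it, and their levels are given with the marker lists.

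Metformin was set against control by limma-trend, on log2(FPKM + 1), for each of 12681 genes whose mean reached 0.5 FPKM, and 32 of the 43 kinesin members passed that filter. The added 1 shrinks the fold change of low genes, so ratios of mean FPKM are given beside the log2 fold changes. With metformin 16 of the 32 tested members rose and 0 fell, where 13.2% of all tested genes rose and 9.28% fell, 22.5% in all (adjusted p under 0.05, Benjamini-Hochberg). Of the 28 members whose control mean reached 0.5 FPKM, 12 rose (42.9%), beside 12.4% of all genes with such a control mean. The other 4 entered the test through their metformin values, and 4 rose, as did 130 of the 274 genes with a control mean under 0.5 FPKM. At an unadjusted p under 0.05, 19 members were higher and 1 was lower, and the share of all genes at that threshold was not counted. Voom on the recovered reads also called 16 members higher and 0 lower, beside 1776 higher and 1237 lower of all 12681 tested genes. All 3 metformin samples lay above all 3 controls for 19 members and below them for 1, against 23.6% and 20.5% of all tested genes. Of the 16 that rose, 13 were mitotic kinesins, 1 was a transport kinesin and 2 were other kinesins. In bulk RNA a larger share of cells that express a gene and more RNA per cell cannot be told apart, and the labels do not say whether the samples were separate cultures, which the methods call biological replicates, so the p-values measure the spread between these samples.

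Every mitotic kinesin that could be tested rose. Of the 14 members of the class 13 passed the filter and 13 rose, with log2 fold changes of 0.86 to 2.65 (median 1.92) against a median of 0.0053 over all tested genes, and for each of the 13 all metformin samples exceeded all controls. The ratio of mean FPKM was 4.05 to 9.07, with a median of 7.03. Kif14, Kif15 and Kif18a had a control mean under 0.5 FPKM and entered the test through their metformin values, and of the 10 mitotic kinesins that passed in control as well 10 rose, beside 12.4% of all genes with such a control mean. Kif2b, a microtubule-depolymerising motor of early mitosis, had no read in any sample. Control replicate 1 was the highest control for 10 of the 13 and the lowest for 2, and without it all 13 were again called higher.

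**Figure D1:**
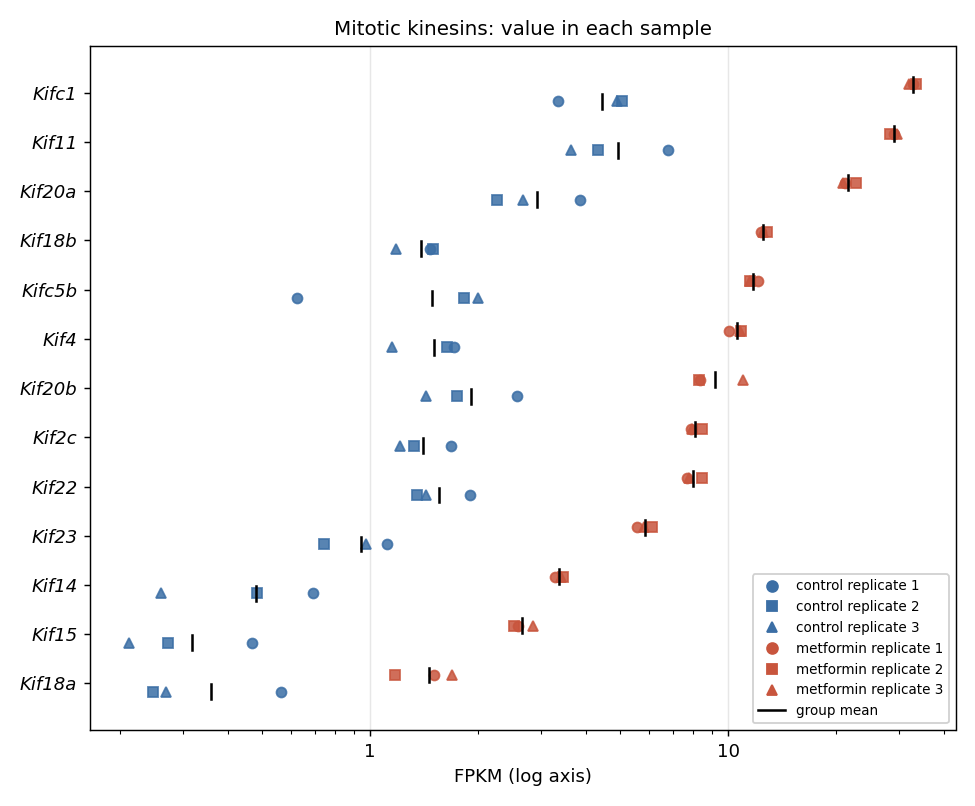
Level of the 13 tested mitotic kinesins in each sample, in FPKM on a log axis, with controls in blue, metformin samples in red, a marker shape for each replicate number and a black bar at each group mean. In every row the 3 metformin points lie to the right of the 3 control points, and Kifc5b has its control replicate 1 at 0.625 FPKM, well to the left of the other controls.

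The motors that push the spindle poles apart rose (gene coordinates are those of the table, on GRCm38). Kif11 (chr19:37376403-37421859) is the plus-end motor that slides antiparallel microtubules apart and so separates the spindle poles. Kif11 was at 6.78, 4.34 and 3.63 FPKM in control replicates 1, 2 and 3 and at 29.2, 28.3 and 29.7 FPKM in metformin replicates 1, 2 and 3. The metformin samples were close together and above the highest control, which was replicate 1. The group means were 4.92 ± 1.65 and 29.0 ± 0.705 FPKM (SD, n = 3 each), a ratio of 5.90 and a log2 fold change of 2.38 (SE 0.19, adjusted p = 3.3e-04, limma-trend). Kif15, which can keep the poles apart when Kif11 is weak, lies at chr9:122951046-123018733. In control the Kif15 level was 0.467, 0.273 and 0.212 FPKM, and with metformin it was 2.58, 2.53 and 2.85 FPKM, in order of replicate. The levels were low in both groups and did not overlap. From 0.317 ± 0.133 FPKM the mean went to 2.65 ± 0.170 FPKM (SD, n = 3 each), 8.36 times the control, with a log2 fold change of 1.48 (SE 0.11, adjusted p = 2.7e-04, limma-trend).

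Kifc1 works in the opposite direction, as a minus-end motor that crosslinks spindle microtubules and focuses the poles, and lies at chr17:33875666-33890661. The 3 controls had 3.34, 5.05 and 4.90 FPKM of Kifc1, and the 3 metformin samples had 32.8, 33.5 and 32.0 FPKM. Control replicate 1 was the lowest of the 6, and the metformin samples differed from each other by little. Means were 4.43 ± 0.945 FPKM in control and 32.8 ± 0.770 FPKM with metformin (SD, n = 3 each), which is a ratio of 7.40 (log2 fold change 2.65, SE 0.14, limma-trend adjusted p = 9.0e-05). Among the 43 members Kifc1 ranked 14 by mean FPKM in control and 2 with metformin. Kifc5b (chr17:26917091-26932579) is a close relative of Kifc1 on the same chromosome. For Kifc5b, controls 1 to 3 measured 0.625, 1.83 and 1.99 FPKM and metformin samples 1 to 3 measured 12.1, 11.5 and 11.5 FPKM. Its control replicate 1 was again the lowest sample. By limma-trend the log2 fold change was 2.41 (SE 0.23, adjusted p = 6.9e-04), from 1.48 ± 0.748 to 11.7 ± 0.338 FPKM (SD, n = 3 each) and thus a ratio of 7.89. The transcripts of these genes are 96.8% identical over 2312 bases, so reads could have been split between them and the level of each is uncertain.

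Motors that shorten or cap microtubules at chromosomes and at the cell cortex rose as well. Kif18b (chr11:102905529-102925124) is a kinesin-8 motor that trims astral microtubules. Kif18b was at 1.47, 1.49 and 1.18 FPKM in control replicates 1, 2 and 3 and at 12.3, 12.8 and 12.5 FPKM in metformin replicates 1, 2 and 3. Controls and metformin samples each lay within a narrow range. The group means were 1.38 ± 0.174 and 12.5 ± 0.244 FPKM (SD, n = 3 each), a ratio of 9.07 and a log2 fold change of 2.51 (SE 0.086, adjusted p = 6.4e-05, limma-trend). No other tested member had a larger ratio. Kif2c (chr4:117159639-117182639) depolymerises microtubules at kinetochores and corrects wrong attachments. In control the Kif2c level was 1.68, 1.32 and 1.21 FPKM, and with metformin it was 7.87, 8.48 and 7.92 FPKM, in order of replicate. No control came near the lowest metformin sample. From 1.41 ± 0.246 FPKM the mean went to 8.09 ± 0.339 FPKM (SD, n = 3 each), 5.75 times the control, with a log2 fold change of 1.92 (SE 0.099, adjusted p = 8.7e-05, limma-trend). Kif18a, at chr2:109280738-109341747, dampens the movements of chromosomes at the spindle equator. The 3 controls had 0.563, 0.247 and 0.269 FPKM of Kif18a, and the 3 metformin samples had 1.51, 1.17 and 1.69 FPKM. It was the mitotic kinesin with the smallest change, and its groups did not overlap. Means were 0.360 ± 0.176 FPKM in control and 1.46 ± 0.264 FPKM with metformin (SD, n = 3 each), which is a ratio of 4.05 (log2 fold change 0.86, SE 0.14, limma-trend adjusted p = 0.00631).

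The chromokinesins, which bind chromosome arms, followed the same direction. Kif4 (chrX:100625737-100727214) acts with condensin on chromosome arms and with Prc1 on the central spindle. For Kif4, controls 1 to 3 measured 1.72, 1.64 and 1.15 FPKM and metformin samples 1 to 3 measured 10.03, 10.9 and 10.8 FPKM. The lowest metformin sample lay far above the highest control. By limma-trend the log2 fold change was 2.21 (SE 0.11, adjusted p = 8.1e-05), from 1.505 ± 0.307 to 10.6 ± 0.475 FPKM (SD, n = 3 each) and thus a ratio of 7.03. Kif22 (chr7:127027729-127042471) pushes chromosome arms away from the poles. Kif22 was at 1.90, 1.35 and 1.43 FPKM in control replicates 1, 2 and 3 and at 7.69, 8.45 and 7.80 FPKM in metformin replicates 1, 2 and 3. Replicate 1 was the highest control and the lowest metformin sample. The group means were 1.56 ± 0.295 and 7.98 ± 0.412 FPKM (SD, n = 3 each), a ratio of 5.11 and a log2 fold change of 1.82 (SE 0.11, adjusted p = 1.3e-04, limma-trend).

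Motors of the central spindle and of cytokinesis made up the rest of the class. Kif20a, on chromosome 18, brings the chromosomal passenger complex to the central spindle. In control the Kif20a level was 3.87, 2.26 and 2.67 FPKM, and with metformin it was 21.3, 22.8 and 20.9 FPKM, in order of replicate. Replicate 1 was the highest control. From 2.93 ± 0.835 FPKM the mean went to 21.7 ± 1.00 FPKM (SD, n = 3 each), 7.39 times the control, with a log2 fold change of 2.55 (SE 0.15, adjusted p = 1.4e-04, limma-trend). Kif23 (chr9:61915905-61946774) forms centralspindlin with Racgap1. The 3 controls had 1.12, 0.742 and 0.972 FPKM of Kif23, and the 3 metformin samples had 5.55, 6.15 and 5.83 FPKM. Neither group came near the other. Means were 0.943 ± 0.189 FPKM in control and 5.84 ± 0.298 FPKM with metformin (SD, n = 3 each), which is a ratio of 6.19 (log2 fold change 1.82, SE 0.10, limma-trend adjusted p = 1.1e-04). Kif20b (chr19:34922361-34975745) takes part in the final stages of cytokinesis. For Kif20b, controls 1 to 3 measured 2.57, 1.75 and 1.43 FPKM and metformin samples 1 to 3 measured 8.32, 8.28 and 11.01 FPKM. Metformin replicate 3 stood above the other metformin samples, and all metformin samples were above the controls. By limma-trend the log2 fold change was 1.81 (SE 0.17, adjusted p = 6.9e-04), from 1.92 ± 0.589 to 9.20 ± 1.56 FPKM (SD, n = 3 each) and thus a ratio of 4.80. Kif14 (chr1:136466343-136531511) localises to the midbody with citron kinase. Kif14 was at 0.693, 0.483 and 0.260 FPKM in control replicates 1, 2 and 3 and at 3.27, 3.46 and 3.40 FPKM in metformin replicates 1, 2 and 3. The controls spread widely at this low level and stayed below the metformin samples. The group means were 0.479 ± 0.216 and 3.38 ± 0.0935 FPKM (SD, n = 3 each), a ratio of 7.06 and a log2 fold change of 1.58 (SE 0.13, adjusted p = 3.4e-04, limma-trend).

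Each of the 13 calls held in 6 of 6 fits that left out 1 sample. By voom, on log2 CPM of the recovered reads, the log2 fold changes of the 13 were 2.11 to 3.18, with a median of 2.83. The samples of the class were more alike with metformin, where the median coefficient of variation was 4.49%, than in control, where it was 28.5%. This was not particular to the class. The medians were 3.83% with metformin and 14.2% in control for the transport kinesins, and 6.04% and 20.1% for the other kinesins. Other genes share sequence with some members: 979 bases of Kif20a overlap Cdc23 and 684 bases of Kif4 overlap Pdzd11, both on the opposite strand, and whether the counting used the strand is not stated.

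The windows around the transcript starts were read for short motifs of cell cycle genes, because the mitotic members moved together. The cell cycle genes homology region, or CHR, is a short element that complexes of the cell cycle use at genes of mitosis, and CCAAT boxes often stand before it. RefSeq windows of 300 bases (250 before to 50 after the start, GRCm38.p6) were found for 33 of the 43 members, among 32851 windows in all, and both strands were searched. No window was found for Kif20a or Kif1bp, nor for the transport kinesins Kif5a, Kif5b, Kif13b, Kifc2 and Kifc3. Of the other kinesins Kif19a, Kif21b and Kif28 lacked one. The mitotic windows thus include Kif2b, which had no reads, and lack Kif20a, which rose. The CHR was taken as TTTGAA and its variant as TTCGAA, the box was taken as CCAAT, and E2F sites were taken as TTCGCGC in their first form and as TTGGCGC in their second form. The second E2F form can share bases with the box read on the other strand (ATTGG), and no mitotic window held both. The following stretches show the CHR match nearest the start in the 9 mitotic windows that held one from 30 bases before to 50 after the start, with the motif in capitals, read in the direction of the gene:
Kif11 (chr19:37376351-37376380, plus strand): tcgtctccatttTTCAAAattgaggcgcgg
Kif15 (chr9:122951050-122951079, plus strand): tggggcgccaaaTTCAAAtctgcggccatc
Kifc1 (chr17:33890615-33890644, minus strand): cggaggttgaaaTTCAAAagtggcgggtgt
Kifc5b (chr17:26917108-26917137, plus strand): cggaggttgaaaTTCAAAagtgactggtgt
Kif18b (chr11:102925104-102925133, minus strand): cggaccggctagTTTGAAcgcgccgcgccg
Kif4 (chrX:100626072-100626101, plus strand): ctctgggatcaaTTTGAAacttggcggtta
Kif22 (chr7:127042420-127042449, minus strand): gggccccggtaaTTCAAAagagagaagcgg
Kif23 (chr9:61946780-61946809, minus strand): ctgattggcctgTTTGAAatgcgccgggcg
Kif20b (chr19:34922353-34922382, plus strand): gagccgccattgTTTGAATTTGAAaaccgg

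The letters TTCAAA in these stretches are the same motif on the other strand. In Kif20b a pair of matches adjoined each other. The stretches of Kifc1 and Kifc5b, which are close relatives, are nearly the same. Their windows are therefore not independent in the counts of CHR and CCAAT that follow. A CHR was present in 11 of 13 mitotic windows (84.6%), in 0 of 10 transport windows, in 2 of 10 other windows (Kif26b and Kif27) and in 17.9% of all windows. A CHR that began between 30 bases before and 50 after the start was in 9 mitotic windows, in 0 transport windows, in 1 other window and in 3.83% of all windows, a range chosen after the positions were seen. The RefSeq starts of Kif14 and Kif2c, with a CHR further upstream, lie 1505 and 3867 bases from the 5′ end of the gene in the table, and those of Kif27, with a CHR, and Kif17, without one, lie 4175 and 11816 bases from it, so these 4 windows may show another start. Kif18a and Kif2b had no CHR in the window, and Kif18a rose while Kif2b had no reads.

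CCAAT was in 9 of 13 mitotic windows (69.2%), in 3 of 10 transport windows (30%), in 4 of 10 other windows (40%) and in 37.4% of all windows. Both CHR and CCAAT were in 8 mitotic windows, and the share of all windows with both was not counted. In Kif14 the box, 92 bases before the start, came after the CHR, 228 before it. In the other mitotic windows with both, the nearest box before a CHR stood 9 to 46 bases from it, from first base to first base. An E2F site of the second form, TTGGCGC, was in 2 mitotic windows, those of Kif15 and Kif18a, and in 2.45% of all windows. TTCGCGC was in the window of Kif16b and in 1.59% of all windows, and TTCGAA was in the window of Kif24 and in 1.56% of all windows. The median GC content was 60.67% in mitotic windows, 68.17% in transport windows and 52.67% in all windows, and its part in the motif shares was not tested. The 100 bases before the start are shown for Kif11 and Kif18b, which rose, and for Kif1c, the transport kinesin with the highest level, with CCAAT and CHR matches in capitals:
Kif11 (chr19:37376282-37376381, plus strand): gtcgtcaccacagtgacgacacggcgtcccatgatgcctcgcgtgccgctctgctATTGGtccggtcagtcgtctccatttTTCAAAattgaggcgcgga
Kif18b (chr11:102925125-102925224, minus strand): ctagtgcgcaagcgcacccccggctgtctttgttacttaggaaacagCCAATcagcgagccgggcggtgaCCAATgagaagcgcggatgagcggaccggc
Kif1c (chr11:70700448-70700547, plus strand): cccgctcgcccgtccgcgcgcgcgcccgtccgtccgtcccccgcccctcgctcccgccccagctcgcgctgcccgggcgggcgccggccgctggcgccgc

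In Kif11 a CCAAT box, read as ATTGG, stood 26 bases before the CHR, from first base to first base, and in Kif18b 2 boxes preceded a CHR that begins at base 4. The stretch of Kif1c held none of the letters searched for.

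**Figure D2:**
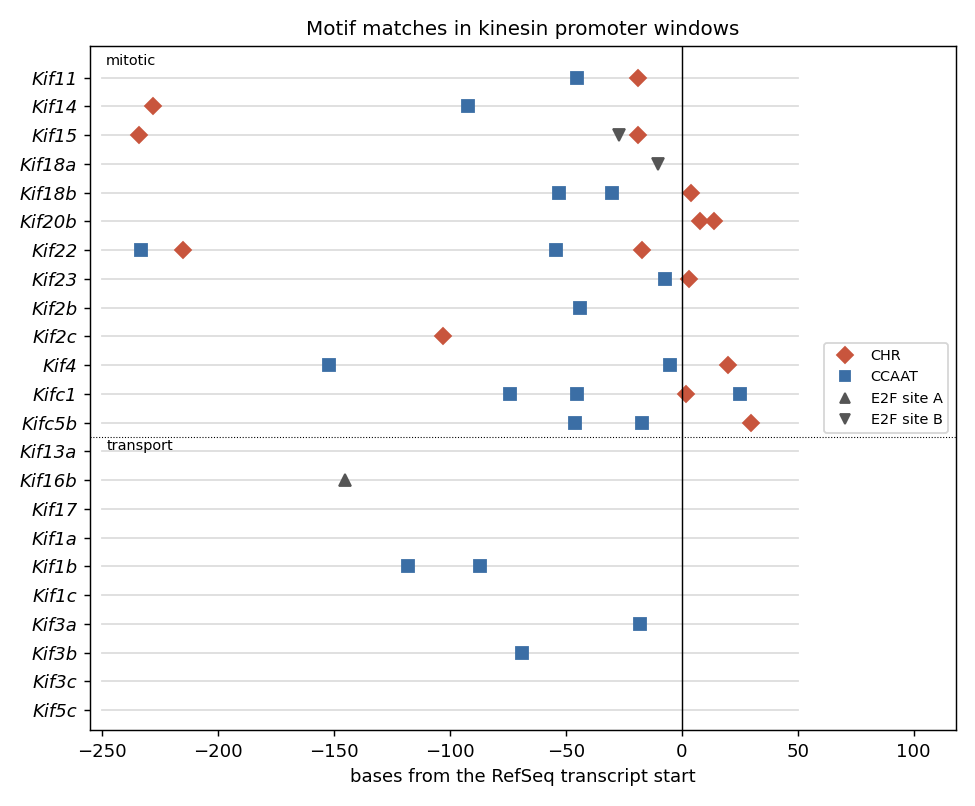
Position of each motif match in the RefSeq windows of the mitotic kinesins (upper rows) and transport kinesins (lower rows), in bases from the transcript start. Red diamonds are CHR, blue squares CCAAT, upward triangles TTCGCGC (E2F site A) and downward triangles TTGGCGC (E2F site B); CHR matches are in 11 of 13 mitotic rows and in 0 of 10 transport rows.

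The transport kinesins stood near the background share. Of the 15 members of the class 12 were tested, 1 rose and 0 fell (limma-trend), with log2 fold changes of -0.60 to 0.56 and a median of 0.059. The 8.33% that rose stand beside 13.2% of all tested genes, and with 12 members the count does not set the class apart from them. At an unadjusted p under 0.05, 4 transport kinesins were higher and 1 was lower, and the share of all genes at that threshold was not counted. Voom called 1 higher and 0 lower, beside 1776 higher and 1237 lower of all 12681 tested genes. The metformin samples lay above the controls for 4 members (33.3%, beside 23.6% of all tested genes) and below them for 1. Without control replicate 1, 3 were called higher and 1 lower. That fit called 2969 higher and 2590 lower of the 12681 tested genes, against 1670 and 1177 with all samples kept. More genes of any kind thus passed in it, and its counts do not set the class apart either. The median of the mitotic kinesins was 1.86 above that of the transport kinesins on the log2 scale.

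Kif13a (chr13:46749087-46929867) carries endosomes and recycling cargo, and was the transport kinesin that rose. In control the Kif13a level was 4.30, 3.30 and 4.35 FPKM, and with metformin it was 6.46, 6.30 and 6.21 FPKM, in order of replicate. The groups did not overlap. From 3.98 ± 0.589 FPKM the mean went to 6.33 ± 0.128 FPKM (SD, n = 3 each), 1.59 times the control, with a log2 fold change of 0.56 (SE 0.11, adjusted p = 0.0111, limma-trend). With 1 sample left out at a time, 3 of 6 fits kept the call, those without a control, and without metformin replicate 1, 2 or 3 the adjusted p was 0.0589, 0.0554 or 0.0507. Kif16b, which moves early endosomes, had a log2 fold change of 0.24 (adjusted p = 0.0899, limma-trend) and non-overlapping groups, and it passed without control replicate 1 (adjusted p = 0.0123).

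Kif1c (chr11:70700548-70731964) moves vesicles and messenger RNA along microtubules, and was the most abundant kinesin in both groups. The 3 controls had 24.1, 29.0 and 40.5 FPKM of Kif1c, and the 3 metformin samples had 42.2, 45.8 and 42.9 FPKM. The highest control, replicate 3, was just below the lowest metformin sample. Means were 31.2 ± 8.38 FPKM in control and 43.6 ± 1.94 FPKM with metformin (SD, n = 3 each), which is a ratio of 1.398 (log2 fold change 0.50, SE 0.18, limma-trend adjusted p = 0.0951), and the 95% interval of the log2 fold change was 0.07 to 0.93. Without control replicate 3 the change passed (adjusted p = 0.0115).

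The heavy chains of conventional kinesin carry mitochondria, vesicles and other cargo with their light chains. Kif5b, the ubiquitous heavy chain, was second in level in control. For Kif5b, controls 1 to 3 measured 37.6, 22.6 and 23.5 FPKM and metformin samples 1 to 3 measured 28.9, 28.8 and 30.8 FPKM. Control replicate 1 was the highest of the 6 samples and the other controls the lowest. By limma-trend the log2 fold change was 0.11 (SE 0.19, adjusted p = 0.717), from 27.9 ± 8.41 to 29.5 ± 1.10 FPKM (SD, n = 3 each) and thus a ratio of 1.06, and the 95% interval of the log2 fold change was -0.34 to 0.57. Without control replicate 1 the log2 fold change was 0.34 (adjusted p = 0.00423). Kif5c, better known from neurons, had a log2 fold change of 0.32 (adjusted p = 0.0693) and non-overlapping groups. Kif5a, the third heavy chain, was at 0.213 to 0.462 FPKM and was not tested.

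Kif3a, Kif3b and Kif3c are kinesin-2 motors, of which the Kif3a and Kif3b pair drives transport into the cilium. Kif3b, at chr2:153291413-153333390, was the most abundant of them. Kif3b was at 16.2, 12.3 and 14.8 FPKM in control replicates 1, 2 and 3 and at 13.5, 13.9 and 14.0 FPKM in metformin replicates 1, 2 and 3. Metformin samples lay within the range of the controls. The group means were 14.4 ± 1.95 and 13.8 ± 0.275 FPKM (SD, n = 3 each), a ratio of 0.956 and a log2 fold change of -0.053 (SE 0.11, adjusted p = 0.768, limma-trend), and the 95% interval of the log2 fold change was -0.32 to 0.21. Kif3a had a log2 fold change of 0.0060 (adjusted p = 0.980) and Kif3c of -0.052 (adjusted p = 0.710), with 2617 bases of Kif3c overlapping 1110002L01Rik on the opposite strand.

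The remaining transport motors did not pass. Kif1b, a carrier of mitochondria and synaptic vesicle precursors, had a log2 fold change of -0.038 (adjusted p = 0.821). Kif13b, which carries the scaffold protein Dlg1, had -0.098 (adjusted p = 0.497), and Kifc3, a minus-end motor found at cell junctions, had 0.14 (adjusted p = 0.523). Kifc2, a minus-end motor best known from neurons, went from a mean of 1.60 ± 0.656 FPKM (SD, n = 3) in control to 0.687 ± 0.212 FPKM with metformin, a log2 fold change of -0.60 (SE 0.21, adjusted p = 0.0879). Its metformin samples were below all controls, control replicate 1 was the lowest control at 0.891 FPKM, and without that sample the change passed (log2 fold change -0.81, adjusted p = 0.00530).

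**Figure D3:**
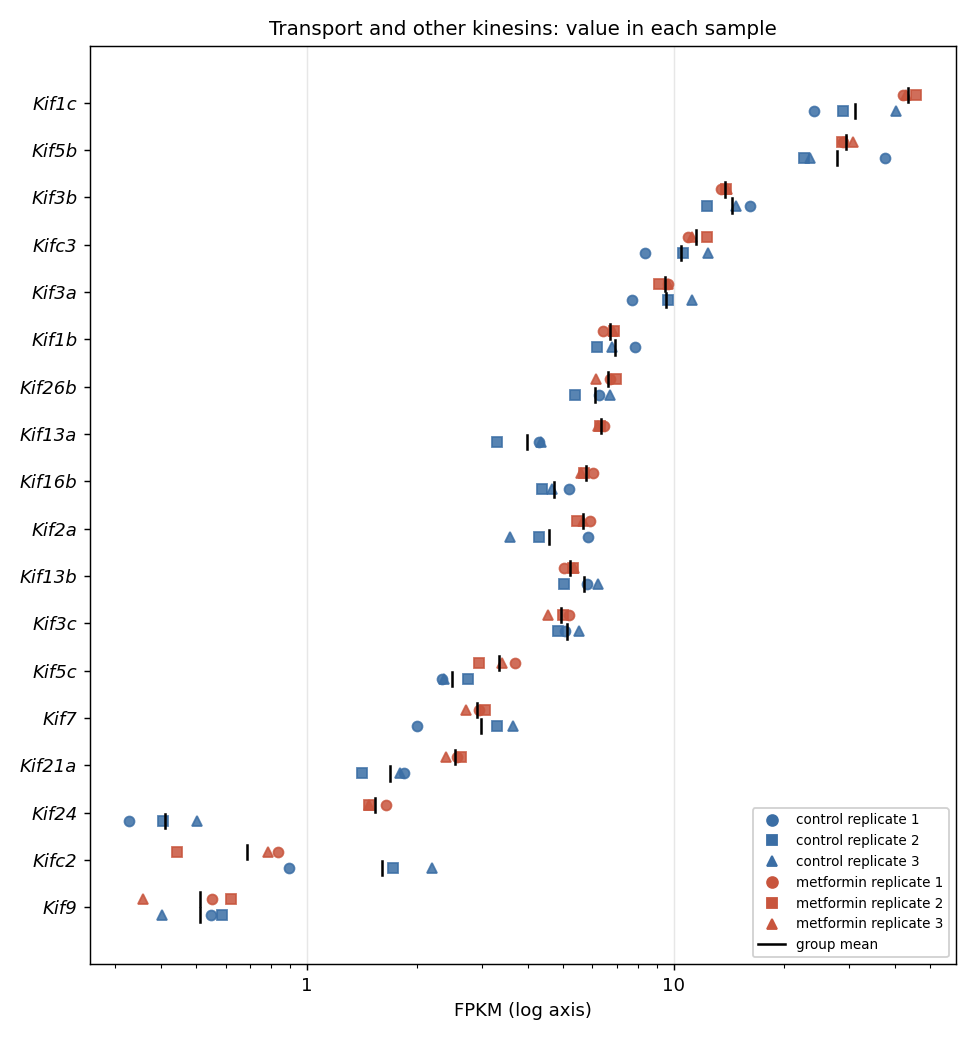
Level of the tested transport and other kinesins in each sample, in FPKM on a log axis, drawn as in the plot of the mitotic kinesins. The groups lie near each other in most rows; Kif24 shows a wide gap, from at most 0.502 FPKM in control to at least 1.48 with metformin.

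Of the 13 other kinesins 6 were tested, 2 rose and 0 fell, with a median log2 fold change of 0.19, and voom also called 2 higher and 0 lower, with 2 higher and 0 lower at an unadjusted p under 0.05. The 33.3% that rose stand beside 13.2% of all tested genes. Of the 5 with a control mean of at least 0.5 FPKM 1 rose (20%), beside 12.4% of all genes with such a mean. With 6 members the count does not set the class apart from all genes. Kif24 (chr4:41390745-41464887) is a centriolar kinesin that restrains the growth of cilia. In control the Kif24 level was 0.328, 0.405 and 0.502 FPKM, and with metformin it was 1.64, 1.48 and 1.48 FPKM, in order of replicate. Its control mean was under 0.5 FPKM, and the groups were far apart. From 0.411 ± 0.0870 FPKM the mean went to 1.53 ± 0.0940 FPKM (SD, n = 3 each), 3.73 times the control, with a log2 fold change of 0.84 (SE 0.099, adjusted p = 0.00162, limma-trend). Kif21a (chr15:90933276-91049948) limits microtubule growth at the cell cortex. The 3 controls had 1.84, 1.41 and 1.79 FPKM of Kif21a, and the 3 metformin samples had 2.56, 2.63 and 2.40 FPKM. The groups did not overlap, but the gap was small. Means were 1.68 ± 0.235 FPKM in control and 2.53 ± 0.117 FPKM with metformin (SD, n = 3 each), which is a ratio of 1.504 (log2 fold change 0.40, SE 0.098, limma-trend adjusted p = 0.0297). With 1 sample left out at a time, 2 of 6 fits kept this call.

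Kif2a, a depolymerising motor of spindle poles and growing neurites, had a log2 fold change of 0.28 (adjusted p = 0.230), and it passed without control replicate 1 (0.44, adjusted p = 0.00728). The transcript of Kif2a overlaps that of Dimt1 over 1229 bases on the opposite strand. Kif26b, a signalling kinesin without motor activity, had 0.10 (adjusted p = 0.513), Kif7, which acts in Hedgehog signalling at the ciliary tip, had -0.0029 (adjusted p = 0.992), and Kif9, a motor of motile cilia and flagella, had -0.0050 (adjusted p = 0.982). Kif1bp, the binding protein, was at 8.91 ± 0.515 FPKM in control and 9.12 ± 0.531 with metformin (SD, n = 3 each), with a log2 fold change of 0.031 (95% interval -0.17 to 0.23, adjusted p = 0.828).

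The 11 members under the filter, which give no count of changes, were mostly motors of neurons and cilia. Besides Kif5a they were Kif6 at 0.222 to 0.352 FPKM, Kif28, Kif17, Kif27, Kif19a, Kif12, Kif1a and Kif21b, with Kif2b and Kif26a at 0 in all samples. Kif28 had 20, 10 and 14 reads in control and 2, 2 and 1 with metformin, and it overlaps Ahctf1 on the same strand. Kif27, a ciliary kinesin related to Kif7, had 7, 5 and 4 reads in control and 2, 0 and 1 with metformin. Without a filter on low values the adjusted p was 0.0491 for Kif28 and 0.167 for Kif27 (limma-trend), and the other members with reads did not pass. Kif12, Kif17, Kif19a, Kif1a and Kif21b had at most 13 reads in any sample, and no change is read from them.

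**Figure D4:**
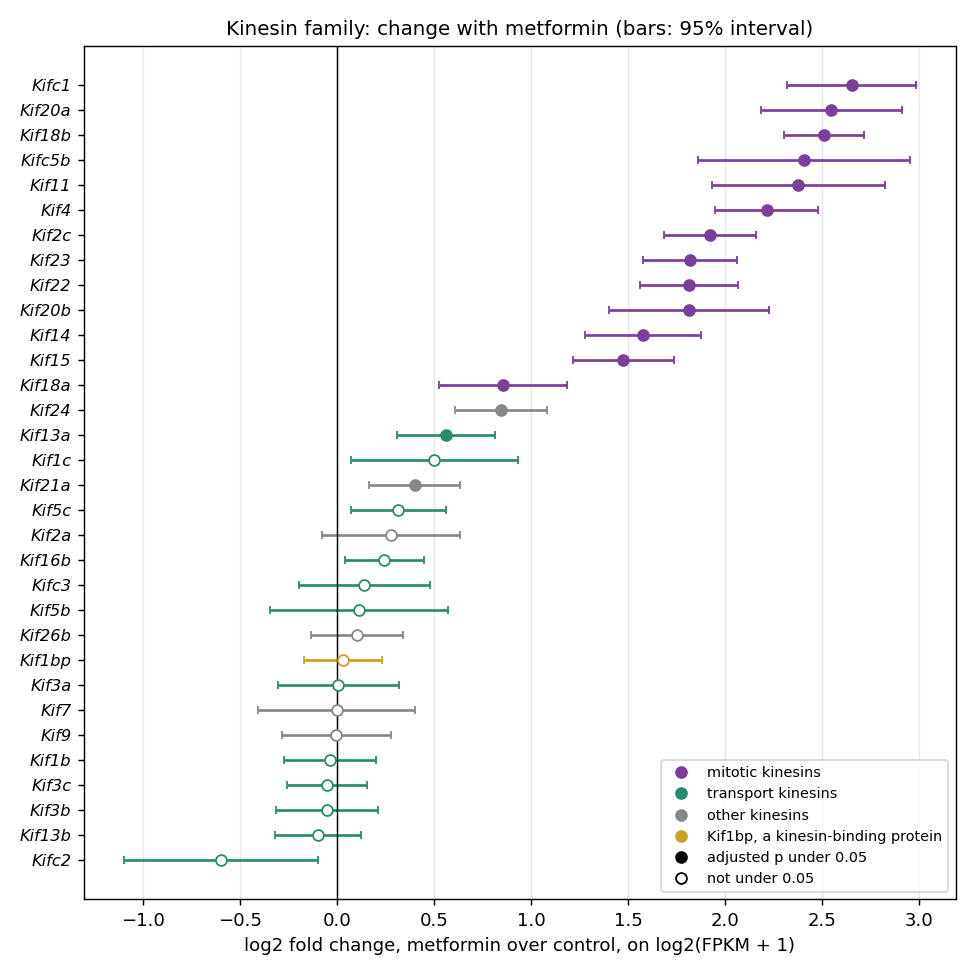
Log2 fold change of the 32 tested members, metformin over control on log2(FPKM + 1), with 95% intervals from limma-trend as bars. Purple marks mitotic, green transport and grey other kinesins, filled points have an adjusted p under 0.05, and the 13 mitotic kinesins take the top 13 places, from 2.65 for Kifc1 to 0.86 for Kif18a.

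Because FPKM are scaled by gene length, the levels of the motors can be added within a sample. The 14 mitotic kinesins together stood at 26.8, 22.8 and 21.3 FPKM in control replicates 1 to 3 and at 154, 158 and 158 FPKM with metformin. These sums did not overlap. The transport kinesins together were at 126, 113 and 135 FPKM in control and 139, 143 and 141 with metformin, a much smaller gap. The mitotic share of the summed FPKM of all motors was 14.4 ± 1.83% in control and 49.3 ± 0.248% with metformin (SD, n = 3 each), while the transport share was 75.4 ± 2.10% and 44.4 ± 0.0910%. The shares add up to a whole, so a rise of one class lowers the share of the others.

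**Figure D5:**
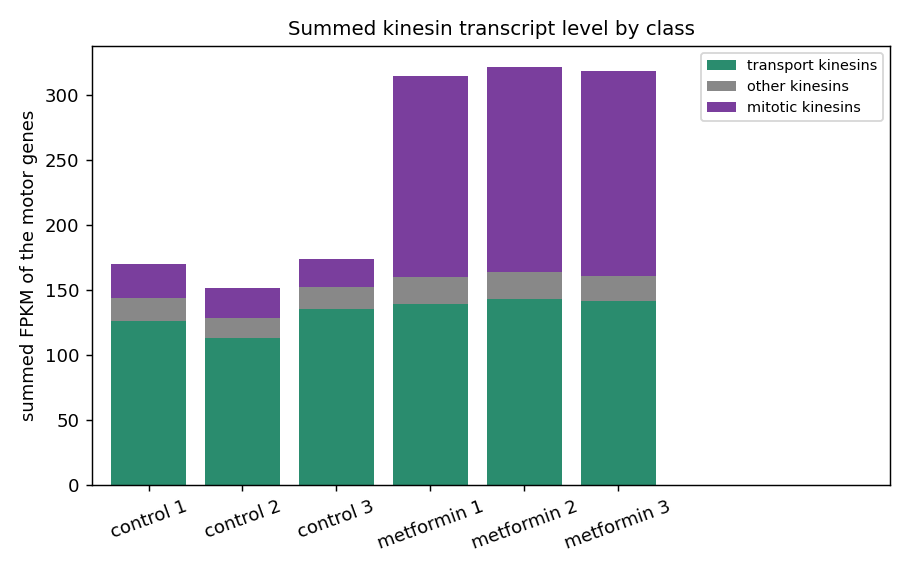
Summed FPKM of the motor genes in each sample, with transport kinesins in green, other kinesins in grey and mitotic kinesins in purple. The green part is 113 to 143 FPKM in all 6 bars, while the purple part is 21.3 to 26.8 FPKM in the controls and 154 to 158 with metformin.

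The partners of the mitotic motors rose with them. Of 17 spindle partners tested 16 rose, beside 13.2% of all tested genes, with a median log2 fold change of 2.17. Numa1, a pole protein, did not pass (0.033, adjusted p = 0.885). Tpx2, which activates Aurka and binds Kif11, went from 5.45 ± 0.681 to 34.9 ± 1.90 FPKM (SD, n = 3 each), with a log2 fold change of 2.48 (SE 0.10, adjusted p = 6.4e-05, limma-trend). Aurka, the kinase of spindle poles, went from 3.19 ± 0.313 to 17.9 ± 0.355 FPKM, with a log2 fold change of 2.17 (SE 0.085, adjusted p = 6.4e-05, limma-trend). Cenpe, the kinetochore kinesin with another name, rose by 2.04 (SE 0.15, adjusted p = 0.00027), while Stard9, the other such motor, had -0.14 (adjusted p = 0.517).

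Markers of proliferation moved in the same samples. All 12 tested rose, beside 13.2% of all tested genes, with a median log2 fold change of 2.36. The summed level of these markers was 85.1 to 112 FPKM in control and 387 to 402 FPKM with metformin. Mcm5, a subunit of the replicative helicase, had a log2 fold change of 2.10 (SE 0.080, adjusted p = 6.4e-05, limma-trend), and Cdc20, an activator of the anaphase-promoting complex, of 2.57 (SE 0.10, adjusted p = 6.4e-05, limma-trend). Their part in the rise of the mitotic kinesins was not tested.

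The partners of the transport motors were counted in the same way. Of 15 tested light chains and cargo adaptors 0 rose and 1 fell by limma-trend, with 2 higher and 1 lower at an unadjusted p under 0.05 and 0 higher and 1 lower by voom. The one that fell was Klc4, a kinesin light chain, from 11.8 ± 1.44 to 6.72 ± 0.348 FPKM (log2 fold change -0.73, SE 0.10, adjusted p = 0.0039). Without control replicate 1, 3 were higher and 3 lower, in a fit that called 2969 higher and 2590 lower over all tested genes. The 1 call is 6.67% of the list, beside 22.5% of all tested genes called either way. Dynein, the motor of the opposite direction, and its activator dynactin had 21 subunits or regulators tested, of which 2 rose and 1 fell (14.3% called either way). Both lists are too short to be set apart from the share over all genes. Nde1, a dynein regulator that also acts in mitosis, rose by 0.57 (SE 0.074, adjusted p = 0.0025), and the light intermediate chain Dync1li2 fell by 0.38 on the log2 scale (SE 0.084, adjusted p = 0.021). The call of Dync1li2 held in 3 of 6 fits with 1 sample left out and was lost with the replicate block (adjusted p = 0.081).

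Markers of bone and of other cells were set beside these changes. Among the 10 osteoblast markers 3 rose (Col1a1, Col1a2 and Dlx5) and 2 fell (Ibsp and Spp1), where 13.2% of all tested genes rose and 9.28% fell. Ibsp went from 814 ± 150 to 265 ± 4.41 FPKM, with a log2 fold change of -1.60 (SE 0.15, adjusted p = 5.8e-04, limma-trend). Spp1 went from 7703 ± 989 to 2704 ± 23.4 FPKM (SD, n = 3 each), with a log2 fold change of -1.50 (SE 0.13, adjusted p = 4.7e-04, limma-trend). The calls of Col1a1, Col1a2 and Dlx5 held in 3, 4 and 3 of 6 fits with 1 sample left out, and those of Ibsp and Spp1 in 6 of 6. Without control replicate 1 the list had 4 higher and 4 lower, with Bglap and Bglap2 also lower (adjusted p = 0.0031 and 0.030). The same fit called 2969 higher and 2590 lower over all tested genes. The summed level of the list was 10038 to 11798 FPKM in control and 6840 to 7235 FPKM with metformin, and without Spp1, which made up most of the control sum, the other 9 summed to 2641 to 3610 FPKM in control and 4136 to 4508 FPKM with metformin. Of 6 neuron markers 1 was tested, Tubb3, a tubulin that is not confined to neurons, and it rose from 3.53 ± 0.437 to 10.4 ± 0.573 FPKM (SD, n = 3 each). The summed level of the list was 3.23 to 4.13 FPKM in control and 10.3 to 11.4 with metformin. Map2, under the filter, was at 0.134 ± 0.00672 FPKM in control and 0.575 ± 0.0432 FPKM with metformin (SD, n = 3 each), without overlap. Rbfox3 and Syt1 were at most 0.0175 and 0.0493 FPKM in any sample. Of 5 macrophage markers 2 were tested, and the summed level of the list was 15.3 to 26.0 FPKM in control and 27.1 to 30.9 FPKM with metformin. Cd68 went from 2.04 ± 0.0955 to 1.17 ± 0.119 FPKM (SD, n = 3 each) and fell by 0.49 on the log2 scale (adjusted p = 0.0102). Lyz2 went from 18.0 ± 5.53 to 27.2 ± 2.06 FPKM (SD, n = 3 each), with all metformin samples above all controls, and did not pass (log2 fold change 0.61, adjusted p = 0.0771), but it passed without control replicate 1 (log2 fold change 0.83, adjusted p = 0.0019). Ptprc, the pan-leukocyte marker, was at most 0.0156 FPKM. Of 5 adipocyte and 5 muscle markers 1 each was tested, Fabp4 at 1.65 to 2.95 FPKM and Des at 1.20 to 2.38 FPKM over the 6 samples, and neither passed. Their part in the kinesin values was not tested.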

How the data were processed

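The RNA of 6 MC3T3-E1 samples was sequenced by the authors, who deposited 1 table with an FPKM value per gene and sample. The unit is not named there and was taken from the values: FPKM times gene length gave whole reads for 100% of values, within 0.01 reads. Sample names in the table matched the labels, and 0 other columns of per-sample values were present. The submitters' processing notes name Bowtie 0.12.2 and the builds mm8 and mm9, while the deposited coordinates of 53585 of 54532 genes equal those of GENCODE M21 (GRCm38); the counting tool, its strand setting and the definition of gene length are not given in the sources used here. The authors compared the groups with DESeq2.

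The table holds no counts, so the groups were compared with limma 3.58.1 (R 4.3.3), as limma-trend on log2(FPKM + 1), for each of 12681 genes whose mean reached 0.5 FPKM, with 3 samples a group, no covariate, a two-sided test and Benjamini-Hochberg adjustment over all genes tested (threshold 0.05). The fit was tested on simulated data with the same spread setting for every gene, no sample set apart and no GC trend. It therefore does not cover those features of the controls. At the depths given in the report, 3 reads are 1.36e-05% to 1.63e-05% of a library, for counting error only. The alternatives tried were voom on the recovered reads, the replicate number as a block, library sizes set to total reads, 0.1 as the pseudocount, every gene kept, a minimum of 10 reads per gene in each sample, removal of the GC trend within each library by a spline with 5 degrees of freedom (GC content known for 99.86% of tested genes), and leaving out each sample.

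The members, classes and lists were chosen with earlier results of these data known, so members are described by counts and medians, with no test over a list. Every tested member was named, values in every sample were given for each called member and the 3 uncalled ones with the highest mean, and from each context list the 2 called genes with the smallest adjusted p. Of the 43 members 40 had the same coordinates in GENCODE M21. Transcript overlaps were found with BLAST+ 2.17.0, promoter windows came from RefSeq (GRCm38.p6), and figures were drawn with matplotlib 3.10.9. Protein sequences were not used here.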

Additional observations from a re-analysis of the deposited data

How the results depend on the processing

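All 13 mitotic kinesins, 16 spindle partners and 12 proliferation markers were called higher under every alternative run. Over all genes, 1670 were higher and 1177 lower, and leaving out 1 sample gave 938 to 2969 higher and 495 to 2590 lower, the most without control replicate 1. Same-numbered samples did not deviate together (correlations of deviations across genes -0.053, 0.00027 and -0.055), and the replicate block gave 1161 higher and 698 lower genes. With the GC trend removed 2426 genes were higher and 2030 lower, and with the block as well 1955 were higher and 1542 lower. More genes of any kind thus passed in these fits than the 1670 and 1177 above. Calls that a list gained in them are to be read beside that. The transport kinesins called higher (1) became 3 with the GC trend removed (Kif13a, Kif1c and Kif16b), 2 with the block and the GC trend removed, and 0 to 3 on leaving out a sample. Those called lower (0) became 1, Kifc2, with the GC trend removed, 1 with the block as well, and 0 to 1 on leaving out a sample. The other kinesins called higher (2) became 1 without a filter, 1 with the block, where Kif21a was lost (adjusted p = 0.0932), and 1 to 3 on leaving out a sample; those called lower (0) became 1, Kif28, without a filter. Light chains and adaptors called higher (0) became 2 with the GC trend removed, 2 with the block as well, and 0 to 3 on leaving out a sample, and those called lower (1) became 2 with the GC trend removed and 1 to 3 on leaving out a sample. Dynein and dynactin genes called higher (2) became 1 when scaled by total reads, 1 without a filter, 1 with the block, 1 with the block and the GC trend removed, and 1 to 4 on leaving out a sample, and those called lower (1) became 0 with the block and 0 to 1 on leaving out a sample. The gap between the mitotic and transport medians, 1.86, was 2.60 with a pseudocount of 0.1 and 2.77 by voom, as a smaller constant shrinks low genes less.

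The sign of 7 uncalled members turned. Kif3a was -0.020 when scaled by total reads, -0.023 with the GC trend removed with or without the block, and -0.12 to 0.12 on leaving out a sample. Kif7 was 0.0070 with a pseudocount of 0.1, 0.0010 by voom and -0.20 to 0.12 on leaving out a sample. Leaving out a sample also turned Kif5b (-0.014 to 0.34), Kif3b (-0.16 to 0.028), Kif1b (-0.11 to 0.043), Kif1bp (-0.0041 to 0.073) and Kif9 (-0.059 to 0.069). The cause was not tested. The depth limits the members with the fewest reads, such as Kif12, Kif19a and Kif21b, where a few reads decide a value. Kif5a and Kif6, also under 0.5 FPKM, had 29 to 62 and 28 to 42 reads per sample.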
